A study of Mus musculus with 8 samples.

Results

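Pericytes and vascular smooth muscle cells, together called mural cells, wrap the endothelial tube of small and larger vessels. The 9 genes described here are markers of these cells and were taken as a named list from a table of 56748 genes, with earlier results of these data known. They are the pericyte genes Cspg4, Abcc9, Kcnj8 and Rgs5, and the smooth muscle genes Acta2, Tagln, Myh11, Des and Cnn1. All 9 were found under 1 identifier each, and all 9 passed the filter on low counts. Bulk RNA sequencing measured them in 8 libraries, each made from tdTomato+ cells sorted from mandibular molars of mice at postnatal day 10, after tamoxifen at day 3. Of these, 4 are labelled cHet, with the genotype Ctnnb1(+/-), and 4 are labelled cKO, with the genotype Ctnnb1(-/-), so both groups received tamoxifen, both carry the fluorescent label, and the control itself lacks 1 copy of the beta-catenin gene. The labels call the cells CXCL12+ apical papilla cells of the dental pulp, while the extraction protocol in the same labels speaks of dental follicle. The sources used here do not give the Cre driver, the number of animals behind a library or the exons deleted.

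Pericytes sit inside the basement membrane of capillaries and steady the vessel, and they are recruited by PDGF-B from endothelial cells through the receptor PDGFRB. Smooth muscle cells of arterioles and arteries contract, using smooth muscle actin and myosin, and their contractile genes are switched on by serum response factor with myocardin at CArG boxes in their promoters. No single mural marker is specific: NG2, the proteoglycan that Cspg4 encodes, is also found on immature mesenchymal cells and glial progenitors, smooth muscle actin also appears in myofibroblasts, and desmin is abundant in skeletal muscle. In dental pulp, perivascular cells have been discussed as a reserve for new odontoblasts.

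Results differed among the mural genes (plots of pericyte and of smooth muscle genes by library). Whether the genes differed from each other in their change was not tested. Cspg4 rose 2.97-fold in cKO libraries and was the one member called over all tested genes. Abcc9 and Kcnj8, which encode the subunits of 1 potassium channel, had means 4.05-fold and 3.26-fold higher without passing over all genes. For Rgs5, the most abundant of the pericyte genes, and all 5 smooth muscle genes the groups overlapped and the 95% interval of the log2 fold change included 0. Those intervals also overlapped that of Cspg4 (0.91 to 2.23). Of the 9 members 1 was called higher and 0 lower by edgeR, where 1.08% of the 21508 tested genes were called higher and 0.0558% lower. At an unadjusted p under 0.05 there were 3 of 9 members, all higher. Over all 21508 tested genes 2320 were higher and 1361 lower at this threshold, 17.1% in either direction. In 2 of 9 members every cKO library lay above every cHet library (6.46% of tested genes), and in 0 of 9 every cKO library lay below (3.68%).

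The upstream sequences of 5 members are shown: the 3 with the largest log2 fold changes, and the 2 most abundant ones, whose groups overlapped. They are the 250 bases before the annotated start, from RefSeq on GRCm38.p6, which is not the build of the counts (GRCm39). Of the 9 members 7 matched the promoter table, Tagln and Myh11 not being among them. The positions are chr9:56864854-56865103 (plus strand) for Cspg4, chr6:142702275-142702524 (minus strand) for Abcc9, chr6:142571615-142571864 (minus strand) for Kcnj8, chr1:169655251-169655500 (plus strand) for Rgs5 and chr19:34255374-34255623 (minus strand) for Acta2. Capitals mark the 2 matches to the CArG box with 1 deviation in its central stretch and the 1 match to CTTTGA, the core bound by TCF and LEF factors, the DNA-binding partners of beta-catenin.
Cspg4: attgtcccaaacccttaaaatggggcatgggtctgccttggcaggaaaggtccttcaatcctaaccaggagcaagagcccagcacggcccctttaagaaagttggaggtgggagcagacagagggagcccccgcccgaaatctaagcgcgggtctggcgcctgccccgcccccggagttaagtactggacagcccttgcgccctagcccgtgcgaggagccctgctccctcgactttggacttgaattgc
Abcc9: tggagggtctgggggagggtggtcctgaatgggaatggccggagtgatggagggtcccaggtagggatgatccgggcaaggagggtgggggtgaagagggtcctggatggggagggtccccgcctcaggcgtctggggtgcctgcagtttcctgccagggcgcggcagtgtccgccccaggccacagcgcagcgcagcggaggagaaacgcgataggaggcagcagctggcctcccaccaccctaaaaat
Kcnj8: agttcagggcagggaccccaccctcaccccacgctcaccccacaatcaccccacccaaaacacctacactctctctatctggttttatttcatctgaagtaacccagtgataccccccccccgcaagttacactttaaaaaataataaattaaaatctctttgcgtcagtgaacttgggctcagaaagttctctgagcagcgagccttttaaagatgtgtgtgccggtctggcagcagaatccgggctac
Rgs5: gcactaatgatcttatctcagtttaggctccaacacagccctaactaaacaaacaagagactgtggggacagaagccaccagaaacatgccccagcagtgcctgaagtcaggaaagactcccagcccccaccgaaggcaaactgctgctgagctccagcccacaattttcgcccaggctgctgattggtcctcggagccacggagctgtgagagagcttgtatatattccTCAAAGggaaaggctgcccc
Acta2: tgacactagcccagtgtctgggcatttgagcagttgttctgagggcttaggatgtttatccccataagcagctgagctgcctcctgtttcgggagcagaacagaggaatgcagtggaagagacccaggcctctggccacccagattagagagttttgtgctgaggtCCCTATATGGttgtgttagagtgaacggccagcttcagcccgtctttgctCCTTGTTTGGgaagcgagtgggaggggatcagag

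Of the 7 members with an entry, none held an exact CArG box on either strand, against 1.47% of 32851 windows of the same length. With 1 deviation allowed Acta2 held 2, at 84 to 75 and 34 to 25 bases before the start, and 8.59% of all windows held at least 1. The pair lies in the smooth muscle actin promoter, and the corresponding windows of Des and Cnn1, the other smooth muscle genes with an entry, held none. CTTTGA, searched on both strands, occurred once, as TCAAAG 20 to 15 bases before the start of Rgs5, and 13.8% of all windows held it. Cspg4, Abcc9 and Kcnj8 held neither motif in these windows. The GC content of the windows was 60.4% for Cspg4, 66.8% for Abcc9 and 49.2% for Kcnj8. Kcnj8 and Abcc9 are neighbours on chromosome 6, both on the minus strand, and 0 annotated genes start between them.

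Library totals lay between 44444033 and 50051392 counts. Ctnnb1 itself did not differ (257 ± 40.2 CPM in cHet and 277 ± 39.2 in cKO, SD, n = 4, edgeR adjusted p = 0.785), and whole-gene counts include any exons outside the deletion, so they cannot check the labels. Cxcl12, which names the sorted cells, rose from 149 ± 91.5 to 826 ± 238 CPM (edgeR adjusted p = 0.0497). Transcripts of other tissues were present. The 15 olfactory epithelium markers summed to between 8499 and 14882 CPM in cHet and 6659 and 12052 in cKO, and the 7 ameloblast markers to between 2315 and 11465 and between 4712 and 8553 CPM. Of the olfactory markers 14 had negative log2 values and 1 a positive value (median −0.47). At an unadjusted p under 0.05 by edgeR 7 were lower and 1 higher, and none was called. The 10 immune markers summed to 10884 CPM in cHet12 and to between 126 and 1357 CPM in the other 7 libraries. All 9 tested immune markers had negative log2 values (median −1.68), 8 of them at an unadjusted p under 0.05 and none called by edgeR, and for the macrophage gene Adgre1 every cKO library lay below every cHet library (24.01 and 7.47 CPM, log2 −1.68, adjusted p = 0.127). The 10 general mesenchyme markers summed to between 3580 and 11825 CPM in cHet and 12978 and 25264 in cKO, without overlap, and cHet11 was the lowest. Their part in the results on mural genes was not tested. In bulk samples, fewer cells of a type and less RNA per cell cannot be told apart.

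Cspg4 encodes NG2, a transmembrane proteoglycan of the pericyte surface. Its normalised count (CPM, scaled with TMM factors) was 14.5 in cHet8, 7.51 in cHet11, 14.4 in cHet12 and 13.8 in cHet14. In the cKO libraries it was 26.7 in cKO7, 34.1 in cKO9, 39.0 in cKO14 and 49.1 in cKO15. Every cKO library was above every cHet library, and 3 of the 4 cHet libraries lay within 1 CPM of each other. The mean rose from 12.6 ± 3.38 to 37.2 ± 9.40 CPM (SD, n = 4), a log2 fold change of 1.57 (SE 0.27, edgeR adjusted p = 0.0421). The call ended when any 1 library other than cKO9 was left out, with a log2 value between 1.39 and 1.70 over the 8 omissions and adjusted p between 0.0339 and 0.147. It also ended when the libraries were scaled to the mesenchyme markers (log2 0.64, adjusted p = 0.209), a scaling that put the median of all tested genes at −1.08.

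Abcc9 and Kcnj8 encode SUR2 and Kir6.1, the regulatory and pore subunits of the ATP-sensitive potassium channel of mural cells, which relaxes the vessel when it opens. Abcc9 stood at 16.7, 4.55, 15.5 and 9.39 CPM in cHet8, cHet11, cHet12 and cHet14. In cKO7, cKO9, cKO14 and cKO15 it stood at 38.1, 30.2, 57.7 and 60.9 CPM. The groups did not overlap, yet the cHet libraries were themselves widely spread, with cHet11 lowest and cHet8 highest. The log2 fold change was 2.02 (SE 0.42) with an edgeR adjusted p of 0.0658 and a 95% interval of 0.99 to 3.05. DESeq2 (adjusted p = 2.81e-05) and limma voom (0.0140) called it, as did edgeR without cKO9 (0.0396), whereas scaling to the mesenchyme markers lowered its log2 value to 1.18 (edgeR adjusted p = 0.125).

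Kcnj8 stood at 19.6, 5.08, 11.7 and 6.98 CPM in cHet8, cHet11, cHet12 and cHet14 and at 46.4, 14.1, 36.9 and 43.7 CPM in cKO7, cKO9, cKO14 and cKO15. A single cKO library, cKO9, lay inside the cHet range, and the other 3 lay above it. The log2 fold change was 1.70 (SE 0.50, edgeR adjusted p = 0.146, 95% interval 0.48 to 2.93), with calls by DESeq2 (adjusted p = 0.00520) and limma voom (0.0331). Scaled to the mesenchyme markers, its log2 value was 0.84 (edgeR adjusted p = 0.150). The ratio of Abcc9 to Kcnj8 counts lay between 0.854 and 1.35 in cHet and between 0.821 and 2.14 in cKO, so the balance of the channel's subunits overlapped between groups. The pancreatic and neuronal forms of the same subunits were close to absent: Abcc8 averaged 0.491 and 0.250 CPM, and Kcnj11 averaged 0.0380 and 0.301 CPM and did not pass the filter.

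Rgs5, a regulator of G protein signalling and a widely used pericyte marker, had similar means in both groups. It stood at 147, 58.8, 110 and 112 CPM in cHet8, cHet11, cHet12 and cHet14 and at 77.9, 83.6, 198 and 90.6 CPM in cKO7, cKO9, cKO14 and cKO15. Apart from cKO14, the highest of all 8 libraries, the cKO libraries lay inside the cHet range. The means were 107 ± 36.3 and 113 ± 57.4 CPM (log2 0.07, SE 0.37, edgeR adjusted p = 0.948), and the 95% interval ran from −0.82 to 0.97. The sign turned when cKO14 (−0.35) or cHet11 (−0.13) was left out, and it was also negative with library size alone (−0.0149) and with mesenchyme scaling (−0.83).

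Set against Rgs5 within each library, the other pericyte genes had higher ratios in cKO. The count of Abcc9 per count of Rgs5 was 0.0774 to 0.1405 in cHet and 0.291 to 0.673 in cKO. For Kcnj8 the same ratio was 0.0622 to 0.133 and 0.169 to 0.596, and for Cspg4 0.0987 to 0.131 and 0.197 to 0.543. None of these ratios overlapped between groups. How many of all tested genes would give such a ratio to Rgs5 was not counted. By their own counts, 6.46% of tested genes had every cKO library above every cHet library. The ratios were chosen after the values had been seen and are given as a description, with no test. A ratio within a library does not depend on how the library was scaled.

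**Figure D1:**
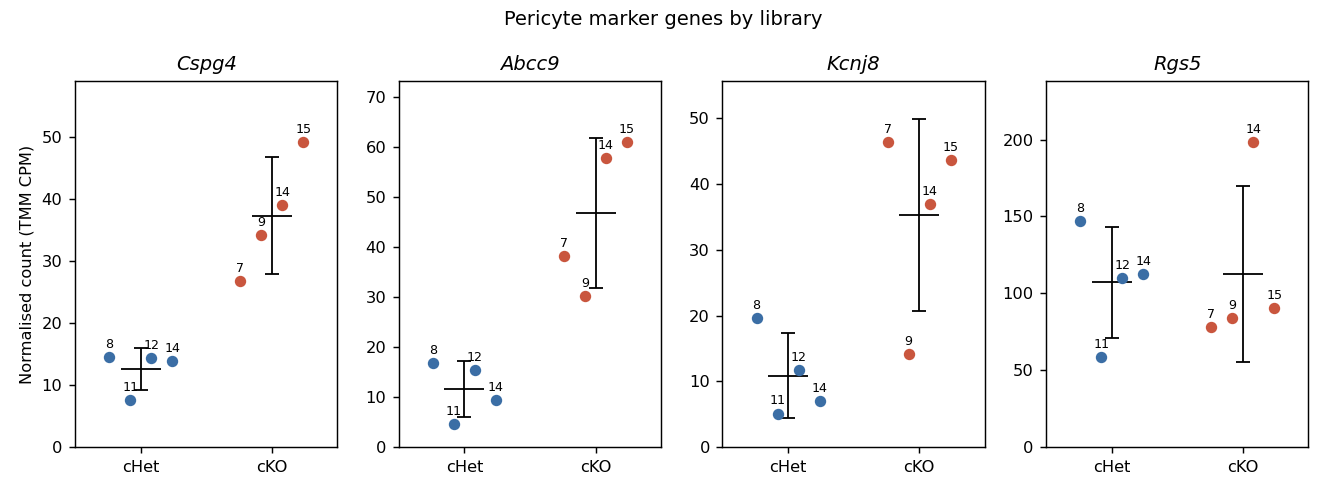
Normalised counts (TMM CPM, linear axis from 0) of the 4 pericyte genes in the 4 cHet (blue) and 4 cKO (red) libraries, with points as libraries labelled by number and mean and SD as bar and whiskers. Cspg4 and Abcc9 are separated by group, Kcnj8 overlaps through cKO9 at 14.1 CPM, and Rgs5 overlaps throughout, with cKO14 at 198 CPM.

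Acta2 encodes smooth muscle alpha-actin, the thin filament of contractile mural cells. It stood at 111, 30.9, 45.3 and 25.7 CPM in cHet8, cHet11, cHet12 and cHet14 and at 62.8, 23.5, 78.7 and 56.6 CPM in cKO7, cKO9, cKO14 and cKO15. The highest library was cHet8 and the lowest cKO9, and the other 6 were mixed, with the groups overlapping. The means were 53.2 ± 39.3 and 55.4 ± 23.2 CPM (log2 0.06, SE 0.52, edgeR adjusted p = 0.972, 95% interval −1.20 to 1.32). Without cHet8 the log2 value was 0.71, and with library size alone it was −0.0469. Of the 50-base words of the longest Acta2 transcript, 0.352% occur in a transcript of another gene, so little of the transcript is identical to the other actins. The cytoplasmic actin genes Actb (965 and 1028 CPM) and Actg1 (344 and 350 CPM) also had small differences (log2 0.09 and 0.02).

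Myh11, the smooth muscle myosin heavy chain and the most lineage-restricted of the contractile markers, stood at 7.34, 7.87, 5.93 and 2.22 CPM in cHet8, cHet11, cHet12 and cHet14. In cKO7, cKO9, cKO14 and cKO15 it stood at 4.06, 4.52, 10.0 and 2.09 CPM. The ranges overlapped almost fully (log2 −0.17, SE 0.55, edgeR adjusted p = 0.916), and limma voom gave the opposite sign (0.18). The filament protein gene Des and the actin-binding calponin gene Cnn1 were low and uneven, with 0 to 257 and 0 to 169 reads per library. Des stood at 4.95, 1.46, 0.573 and 0.454 CPM in cHet8, cHet11, cHet12 and cHet14 and at 0.602, 1.57, 2.32 and 0 CPM in cKO7, cKO9, cKO14 and cKO15. Cnn1 stood at 3.26, 1.48, 0 and 0.454 CPM in the same cHet libraries and at 1.94, 0.336, 0.912 and 0.541 CPM in the cKO libraries. The count of 0 for Des in cKO15 allows up to 0.0706 CPM and that for Cnn1 in cHet12 up to 0.0637 CPM (3 counts, counting error only). Both genes were highest in cHet8, and without it both log2 values turned positive (0.44 for Des and 0.53 for Cnn1), from −0.73 (SE 1.24, edgeR adjusted p = 0.827) and −0.48 (SE 1.22, adjusted p = 0.890). Their 95% intervals, −3.77 to 2.31 and −3.45 to 2.5, leave even large changes undetectable.

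Tagln encodes transgelin (SM22), usually one of the more abundant smooth muscle transcripts, but only 17 to 39 reads per library were assigned to it. Its level was 0.655, 0.379, 0.361 and 0.583 CPM in cHet8, cHet11, cHet12 and cHet14 and 0.869, 0.537, 0.521 and 0.682 CPM in cKO7, cKO9, cKO14 and cKO15. The groups overlapped (log2 0.40, SE 0.42, edgeR adjusted p = 0.696). In the GENCODE M21 annotation 67.9% of the exon bases of Tagln also lie in exons of genes on the opposite strand, among them Pcsk7, a proprotein convertase gene that stood at 58.6 ± 2.24 and 54.0 ± 10.5 CPM. The corresponding share was 5.86% for Des, 1.89% for Abcc9 and 0% for the other 6 members. The library kit does not mark strand, and the sources used here do not say how reads shared by overlapping genes were counted, so the Tagln level is uncertain. The part of this overlap in the low count was not tested.

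**Figure D2:**
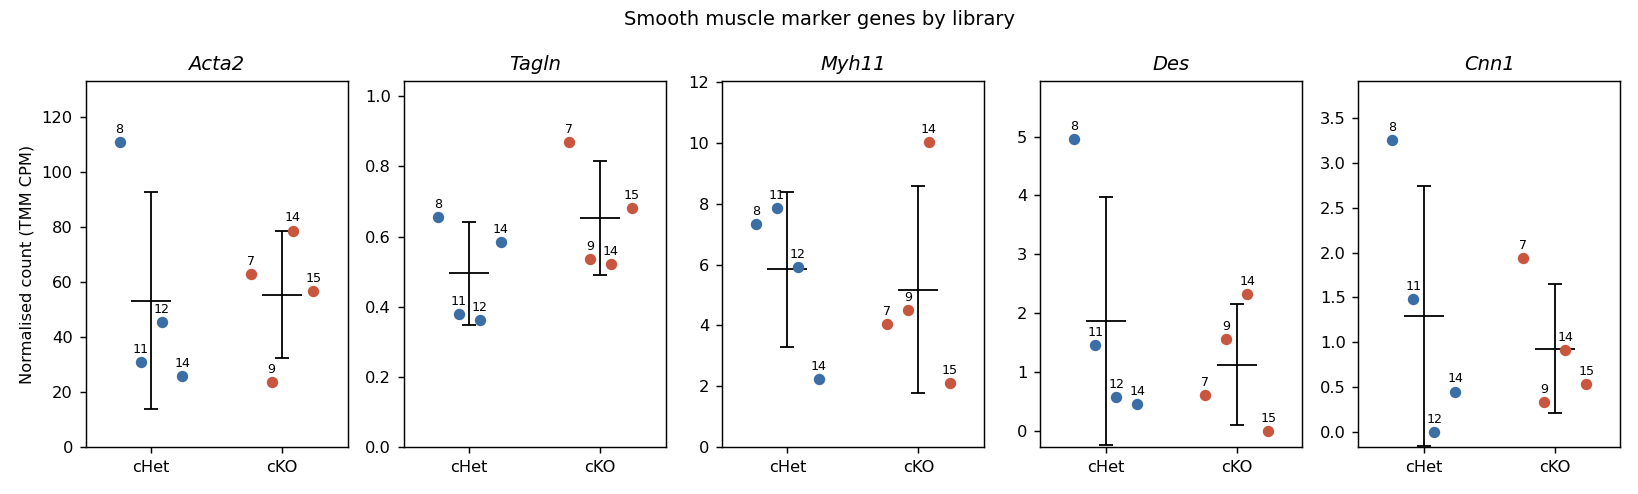
Normalised counts (TMM CPM, linear axis) of the 5 smooth muscle genes in the 4 cHet (blue) and 4 cKO (red) libraries, with points as libraries labelled by number and mean and SD as bar and whiskers. All 5 overlap between groups, and cHet8 is the highest library for Acta2 (111 CPM), Des (4.95 CPM) and Cnn1 (3.26 CPM).

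**Figure D3:**
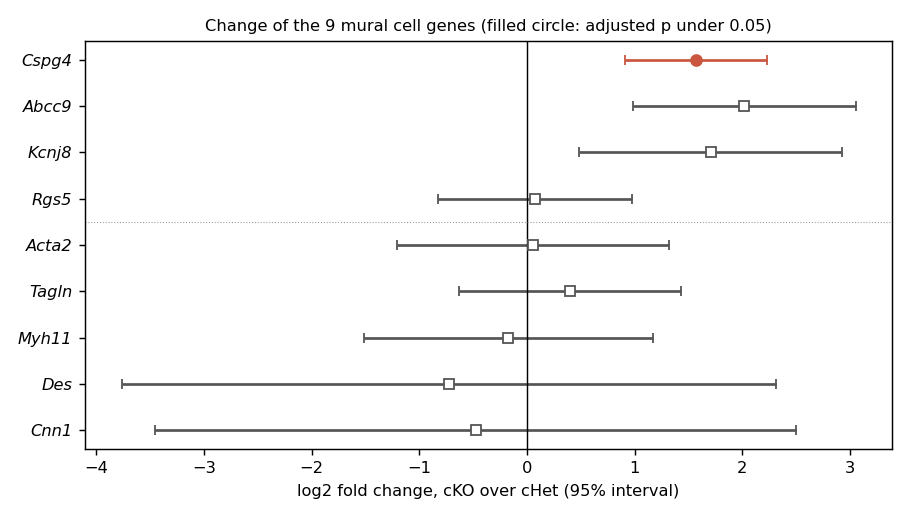
Log2 fold change of each member, cKO over cHet, from the edgeR fit to 8 libraries, with an approximate 95% interval from the standard error and 6 residual degrees of freedom. The intervals of Cspg4, Abcc9 and Kcnj8 lie above 0, those of the other 6 include 0, and Cspg4 alone is called (1.57).

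Levels can be compared between genes only per transcript length, taken here from the longest coding transcript in GENCODE M21. In cHet Rgs5 and Acta2 led with 26.1 CPM per kilobase each, followed by Kcnj8 with 4.25, Cspg4 with 1.55 and Abcc9 with 1.54. Below them came Myh11 with 0.892, Des with 0.614, Cnn1 with 0.545 and Tagln with 0.310. The lowest library for Rgs5 (14.4) and Acta2 (12.6) was above the highest for Kcnj8 (7.68), and the lowest for Kcnj8 (1.995) was above the highest for Cspg4 (1.79), whereas each other neighbouring pair in this order overlapped between libraries. In cKO the order was Rgs5 with 27.5, Acta2 with 27.2, Kcnj8 with 13.9, Abcc9 with 6.23, Cspg4 with 4.59, Myh11 with 0.791, Tagln with 0.409, Cnn1 with 0.392 and Des with 0.371 CPM per kilobase. There the 5 upper genes overlapped with their neighbours, and a gap lay between Cspg4 (lowest library 3.29) and Myh11 (highest library 1.53).

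Across libraries the members did not share 1 order. Library cHet11 was the lowest for all 4 pericyte genes, but the second highest for Myh11. Library cHet8 was the highest for 3 of the 9 members, all of them smooth muscle genes, and cKO14 was among the 3 highest for 7 of 9. The endothelial markers (13 genes, summed) were at 63.8 CPM in cHet8 and 74.9 CPM in cKO14, and at 30.4 to 48.8 CPM in the other 6 libraries, and what these libraries share with the mural genes was not tested. Over groups the endothelial sum was 34.0 to 63.8 CPM in cHet and 30.4 to 74.9 CPM in cKO, and none of the 13 was called (median log2 −0.25). The endothelial adhesion gene Pecam1 averaged 9.69 and 5.62 CPM (log2 −0.79), while Erg, a transcription factor gene also expressed in cartilage, averaged 1.74 and 9.79 CPM (log2 2.49), both without passing (edgeR adjusted p = 0.274 and 0.0769).

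The 20 other pericyte genes also gave mixed results. All 20 were tested, with 1 called higher and 0 lower, beside 1.08% and 0.0558% of all tested genes. There were 10 log2 values of each sign and a median of 0.07, where the median of all tested genes was −0.0267. At an unadjusted p under 0.05 by edgeR 4 were higher and 0 lower, beside 2320 and 1361 of the 21508 tested genes. For 2 of the 20, Cox4i2 and Pdgfrb, every cKO library lay above every cHet library (6.46% of tested genes). For 0 of the 20 every cKO library lay below (3.68%). The called gene was Cox4i2, a lung and pericyte form of a cytochrome oxidase subunit, which stood at 5.68, 1.19, 5.50 and 3.26 CPM in the cHet libraries and at 34.4, 17.6, 25.0 and 28.9 CPM in the cKO libraries (log2 2.76, SE 0.48, edgeR adjusted p = 0.0444). Pdgfrb, the PDGF-B receptor gene, averaged 78.8 and 242 CPM (log2 1.62, adjusted p = 0.119), the endosialin gene Cd248 79.3 and 280 CPM (1.82, adjusted p = 0.135) and Rgs4 10.4 and 32.4 CPM (1.64, adjusted p = 0.181). Pdgfrb and Cd248 are also expressed by fibroblasts. For Vtn (log2 −0.11), Higd1b (−0.0208), Ndufa4l2 (0.21), Steap4 (−0.41) and Mcam (−0.44), chosen after their values had been seen because they are widely used pericyte markers, the adjusted p was at least 0.725. Their SE ran from 0.50 (Mcam) to 0.72 (Ndufa4l2), so a change of moderate size could be missed. Higd1b (0.911 and 0.897 CPM) and Ndufa4l2 (3.03 and 3.51 CPM) were also low. Notch3 (log2 0.98) and Atp13a5 (−0.80) were not called either.

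In the list of 22 other smooth muscle contractile genes, 21 were tested and none was called by edgeR. At an unadjusted p under 0.05 there were 8, all with positive values. Over all 21508 tested genes 2320 were higher and 1361 lower at this threshold, 17.1% in either direction. The median log2 was 0.55, beside 1.11 for the general mesenchyme markers. The myosin light chain kinase gene Mylk averaged 19.5 and 61.3 CPM, with groups that did not overlap (log2 1.65, adjusted p = 0.0784). The integrin gene Itga8 averaged 28.5 and 67.6 CPM (1.24), the smoothelin gene Smtn 21.5 and 43.2 CPM (1.01), and the tropomyosin gene Tpm2 47.2 and 104 CPM (1.14). Several of these, such as Tpm1 (398 and 614 CPM), are present in most mesenchymal cells. The most restricted ones were near 0 in both groups, with Lmod1 at 0.508 and 1.01 CPM, Actg2 at 1.505 and 1.22 CPM and Kcnmb1 not passing the filter. Of serum response factor and its coactivators none of 4 was called, with Srf at 17.0 and 17.1 CPM, Mrtfb at 12.9 and 21.0 CPM and the smooth muscle coactivator gene Myocd at 0.280 and 0.584 CPM.

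Among calponin and transgelin paralogs, Cnn2, Cnn3 and Tagln2 had far higher counts than Cnn1 and Tagln. These counts are not scaled to transcript length, and the level of Tagln is uncertain through the exon overlap given above. The calponins Cnn2 (205 and 295 CPM) and Cnn3 (438 and 550 CPM) and the transgelin Tagln2 (72.4 and 151 CPM) were not called (edgeR adjusted p = 0.599, 0.358 and 0.164). Of 6 intermediate filament genes, the mesenchymal one, Vim, averaged 328 and 389 CPM, and the nestin gene Nes averaged 11.8 and 37.0 CPM with groups that did not overlap (log2 1.65, adjusted p = 0.100). The groups did not overlap either for Gfap, higher in cKO (0.785 and 2.33 CPM, log2 1.56, adjusted p = 0.102), or for the synemin gene Synm, lower in cKO (4.496 and 2.57 CPM, −0.81, adjusted p = 0.319), and the median of the 6 was −0.0165. Of 9 genes of the R4 family to which Rgs5 belongs, Rgs5 included, none was called, and Rgs3 averaged 58.4 and 101 CPM with groups that did not overlap (log2 0.80, adjusted p = 0.0648).

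Genes of mural cell recruitment gave 2 of 9 higher and 0 lower, beside 1.08% and 0.0558% of all tested genes. Their median log2 was 1.36, and in 5 genes every cKO library lay above every cHet library (6.46% of tested genes). The 2 calls, like all others by edgeR, ended without cHet12, cHet14 or cKO14. Angpt1, a ligand that mural cells send to the endothelial receptor Tie2, stood at 14.4, 7.45, 8.67 and 10.5 CPM in the cHet libraries and at 33.8, 25.9, 26.3 and 57.9 CPM in the cKO libraries (log2 1.81, SE 0.33, adjusted p = 0.0471). The Notch ligand gene Jag1 rose from 23.1 ± 4.87 to 59.3 ± 20.1 CPM (log2 1.36, adjusted p = 0.0497). The sphingosine phosphate receptor genes S1pr1 (34.0 and 160 CPM, adjusted p = 0.0507) and S1pr3 (175 and 883 CPM, 0.0728) missed the threshold. Counts were low in both groups for Pdgfb (1.98 and 1.604 CPM), Tek (1.88 and 2.03 CPM) and Dll4 (2.29 and 1.11 CPM). Their log2 values were −0.30, 0.11 and −1.05, and none of them was called.

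**Figure D4:**
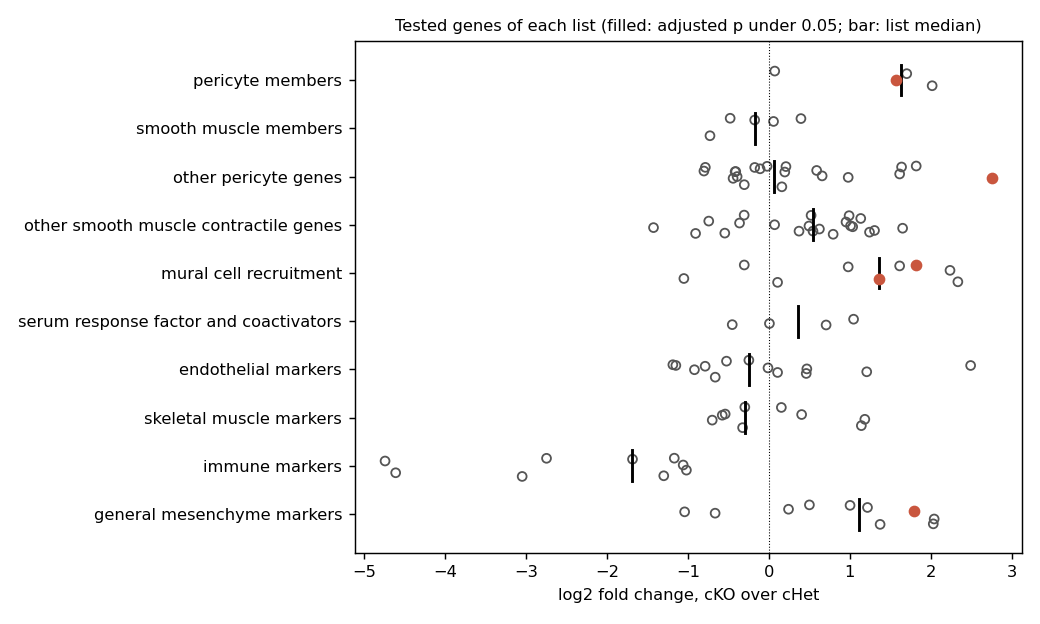
Log2 fold change, cKO over cHet, of every tested gene in 10 lists, with the list median as a bar and genes called over all tested genes filled. The medians are 1.64 for the 4 pericyte members, −0.17 for the 5 smooth muscle members, 1.36 for recruitment genes, −0.25 for endothelial markers and 1.11 for mesenchyme markers, and a single pericyte member lies near 0 (Rgs5).

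Markers of other cells that express mural genes were read beside these results. Skeletal muscle markers, of which 9 of 15 passed the filter, summed to 5.72 to 22.1 CPM in cHet and 8.89 to 23.5 CPM in cKO, with a highest single mean of 3.36 CPM (Acta1). Schwann and glial markers summed to 161 to 569 CPM and 198 to 461 CPM, and basal and myoepithelial markers to 478 to 656 CPM and 406 to 610 CPM, none of them called. The general mesenchyme markers had a median log2 of 1.11, and 1 of 10 was called higher (beside 1.08% of all tested genes), Prrx1 (26.5 and 91.9 CPM, adjusted p = 0.0455). Of the 10, Pdgfra (84.8 and 350 CPM) and Twist2 (8.10 and 33.1 CPM) had log2 values of 2.04 and 2.03, beside 2.02 for Abcc9. The list did not move together, since the matrix genes Dcn (343 and 167 CPM) and Lum (757 and 479 CPM) had log2 values of −1.04 and −0.66, and Twist1 and Vim had 0.50 and 0.24. The 8 papilla markers, genes of the cells that the sort was meant to collect, had a median log2 of 2.19. This list was chosen with earlier results of these data known, and the lists were not tested against each other. The papilla sum was 504 to 1293 CPM in cHet and 2854 to 5530 CPM in cKO, without overlap. Of the 8 papilla markers, 4 were called higher and 0 lower, beside 1.08% and 0.0558% of all tested genes. In 7 of them every cKO library lay above every cHet library (6.46% of tested genes). The called genes were Cxcl12, the insulin-like growth factor binding protein gene Igfbp5 (276 and 1318 CPM, log2 2.26, edgeR adjusted p = 0.0369), the homeobox gene Dlx3 (52.1 and 239 CPM, 2.20, adjusted p = 0.0377) and the matricellular gene Smoc2 (241 and 1087 CPM, 2.18, adjusted p = 0.0471). Tac1 lay the other way, with every cKO library below every cHet library (26.8 and 8.53 CPM, log2 −1.65, adjusted p = 0.108). Whether papilla cells or other mesenchymal or mural cells carried the counts of Cspg4, Abcc9 and Kcnj8 was not tested.

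As a description of likeness, 13241 other tested genes (mean 5 CPM or more) were ranked by Pearson's correlation of log2 CPM with Rgs5 and with Acta2 over the same 8 libraries. The closest to Rgs5 were Ahcy (r = 0.938), Slc17a5 (0.933), Gm13762 (0.927), Ranbp10 (0.921) and Zfp1 (0.912). Those closest to Acta2 were Marc2 (0.960), Napepld (0.948), Tes (0.942), Olfr1242 (0.935) and Fbxo6 (0.935). No other member and no gene of the pericyte or smooth muscle lists was among these 10. With so many genes and so few libraries, correlations of this size are the top of a long ranking, and they carry no test.

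**Figure D5:**
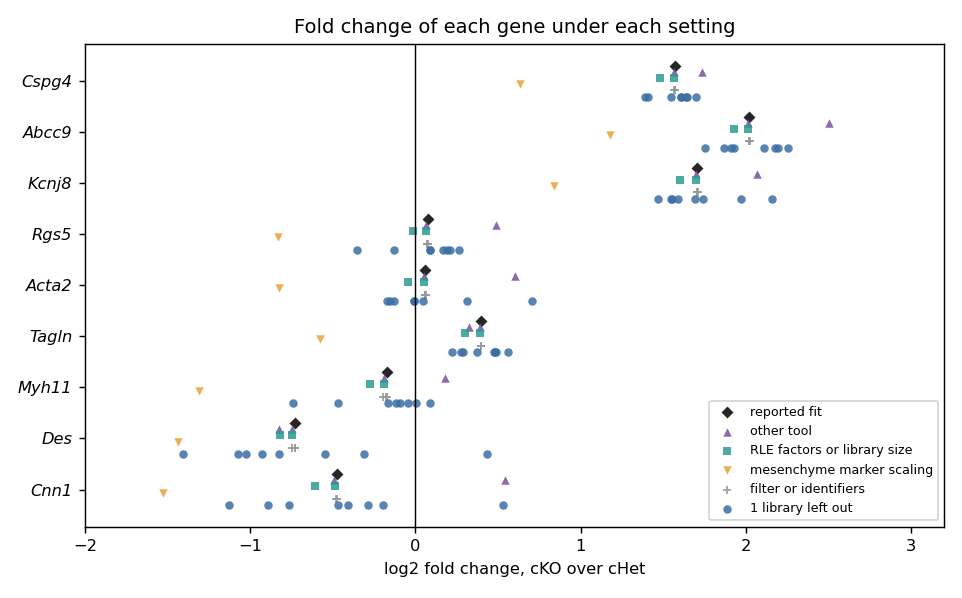
Log2 fold change of each member, cKO over cHet, in the reported edgeR fit and in each other tool, scaling, filter and omission of 1 library, 1 point per setting. Cspg4, Abcc9 and Kcnj8 stay positive in all 16 other settings, the lowest value being 0.64, while Rgs5, Acta2, Tagln, Myh11, Des and Cnn1 change sign in at least 1.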

How the data were processed

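The deposited values are the authors' whole-number counts per gene for 8 libraries, not normalized. Trim Galore, STAR, GRCm39 and mm39 are named in the submitters' processing notes, which give no counting tool or annotation here. Per the labels' protocols, the kit was SMART-Seq v4 for low input, a chemistry that does not mark strand. Columns are named by group and a number that matches no title, so each was assigned to its group alone (libraries are named here by these numbers), and whether libraries came from separate animals is not stated, so p-values measure the spread between libraries.

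Identifiers were matched to symbols (52073 of 56748), the one with the most counts standing for a symbol. The comparison used edgeR 4.0.16 under R 4.3.3 (TMM factors, default filter by group, quasi-likelihood F test, genotype as sole term, two-sided), with Benjamini-Hochberg adjustment over 21508 genes and calls at 0.05. The common biological coefficient of variation was 0.553. SE was approximated from the log2 value and the root of F, and the intervals use 6 residual degrees of freedom. Log2 CPM for likeness used a prior count of 2. Named genes are the 9 members, Ctnnb1, Cxcl12, from each companion list the called genes and up to 4 with the smallest p, and the 5 genes most like Rgs5 and Acta2; any further gene was picked with its values in view. The members and lists were chosen with earlier results of these data known. On simulated counts for 21508 genes, 67% of 4-fold and 90% of 16-fold changes were recovered, with 10 false calls among 167. The alternatives were DESeq2 1.42.0, limma 3.58.1 (voom with quality weights), other scalings and filters, summed identifiers and omission of each library.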

Additional observations from a re-analysis of the deposited data

Results flagged for a closer look

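In the cHet group Cspg4 had a low value in cHet11, 7.51 CPM, where the nearest other library stood at 13.8 CPM, and this gap made up 0.902 of the range of the 4 libraries. The same library was the lowest for the general mesenchyme markers (3580 CPM). In the cKO group Rgs5 had a high value in cKO14, 198.4 CPM, where the nearest stood at 90.6 CPM (gap 0.895 of the range). The endothelial markers were also highest in cKO14 (74.9 CPM). The rule that picked these gaps picks about 1 in 20 groups by chance, and 18 groups of 4 were looked at.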

How the results depend on the processing

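Members called higher numbered 1 in the reported fit, 3 with DESeq2 and with limma voom (Cspg4, Abcc9 and Kcnj8), 0 with mesenchyme scaling, and 0 to 2 when 1 library was left out; 0 were called lower in any setting. At an unadjusted p under 0.05 there were 3 higher in each setting except mesenchyme scaling, which gave 1. Over all genes 232 were higher and 12 lower (reported), 1709 and 871 with DESeq2, 1281 and 271 with limma voom, 6 and 2 with mesenchyme scaling, 216 and 5 without a filter, and 0 to 816 and 0 to 144 when 1 library was left out. No calls remained by edgeR without cHet12, cHet14 or cKO14, where 1812 to 2246 genes had higher values with an unadjusted p under 0.05 (other tools were not applied there). Signs turned with library size alone for Rgs5 (−0.0149) and Acta2 (−0.0469), with mesenchyme scaling for Rgs5 (−0.83), Acta2 (−0.82) and Tagln (−0.58), and with limma voom for Myh11 (0.18) and Cnn1 (0.54). Leaving out 1 library, log2 values ran from −0.35 to 0.27 for Rgs5, −0.17 to 0.71 for Acta2, −0.74 to 0.0874 for Myh11, −1.40 to 0.44 for Des and −1.13 to 0.53 for Cnn1. Library size alone put the median of all tested genes at −0.124. Tagln had no adjusted p with DESeq2, and Tagln and Cnn1 did not pass the filter of 1 CPM in 4 libraries. No paired analysis was possible because the columns carry none of the replicate numbers of the titles. Tagln had 17 to 39 reads per library, and 67.9% of its exon bases lie in exons of other genes, so its level is uncertain. Des and Cnn1 had 0 to 257 and 0 to 169 reads and the largest SE of the 9 members (1.24 and 1.22).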
